A study of Homo sapiens with 9 samples.

Results

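Transcripts of 10 amino acid transporters of the solute carrier (SLC) families were followed across siRNA groups of HEK293, a human embryonic kidney cell line. They were SLC7A5, SLC7A11, SLC3A2, SLC43A1, SLC7A1, SLC6A9, SLC1A4, SLC1A5, SLC38A1 and SLC38A2, chosen by gene symbol from the 14232 genes that a probe set named singly. The choice was made with earlier results of these data known. Counts over the 10, set beside shares of all probe sets, therefore describe the list and do not test it. All 10 had such a probe set and no filter on low values was applied. SLC1A5 had a pair of them, so 11 probe sets were read. The cells were grown in medium with serum, penicillin, streptomycin and L-glutamine and harvested 48 h after transfection with 1 of 3 Stealth siRNAs. These were a control siRNA (siCTR), an siRNA against DBC1, whose gene is now called CCAR2 (siDBC1), and an siRNA against ZNF326, also called ZIRD (siZNF326). Each group held 3 arrays from independent experiments. All groups share the cell line, so every value describes 1 cell line.

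Amino acid carriers of the plasma membrane work in layers. Exchangers such as SLC7A5 and SLC7A11 trade one amino acid for another. They reach the membrane in complex with the single-pass glycoprotein SLC3A2, also called CD98 heavy chain, to which a disulphide bond joins them. Sodium-coupled carriers of the SLC6 and SLC38 families fill the cell with small neutral amino acids, some of which the exchangers give out. Many of these genes are targets of ATF4, a transcription factor whose translation rises when initiation factor eIF2 is phosphorylated, for instance during amino acid shortage. ATF4 pairs with C/EBP proteins on a composite DNA element, the C/EBP-ATF response element.

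The promoters were read for that element because the transporters were lower together in both siRNA groups. RefSeq windows of 300 bases around annotated starts (250 before, 50 after, assembly GRCh38.p14) were at hand for 9 of the genes, 16 windows in all. SLC7A11 had no window, so its promoter was not searched. Written as TGATGNAAN and searched on both strands, the element was found in 5 of the 16 windows, each of a different gene. Of all 35116 windows 3.61% held it, and of all 27305 genes 4.45% held it in at least 1 window. A gene with several starts has several chances of a match. The matches are printed here with up to 20 bases on each side, 5′ to 3′ on the strand where the element reads as written, with the element in capitals.
SLC3A2 (chr11:62881715-62881748, minus strand): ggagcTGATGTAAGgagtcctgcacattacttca
SLC7A1 (chr13:29595653-29595701, minus strand): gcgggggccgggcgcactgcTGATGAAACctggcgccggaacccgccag
SLC1A4 (chr2:64989371-64989419, minus strand): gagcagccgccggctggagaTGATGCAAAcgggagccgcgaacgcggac
SLC1A5 (chr19:46784883-46784931, minus strand): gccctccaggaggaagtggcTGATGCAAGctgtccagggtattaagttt
SLC38A1 (chr12:46266492-46266540, minus strand): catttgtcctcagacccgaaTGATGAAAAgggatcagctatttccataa
The SLC7A1, SLC1A5 and SLC38A1 genes are read from the minus strand, so the element lies on the coding strand there, and on the opposite strand in SLC3A2 and SLC1A4. SLC1A4 and SLC1A5 share the letters TGATGCAA, and SLC7A1 and SLC38A1 share TGATGAAA. The other windows, those of SLC7A5, SLC43A1, SLC6A9 and SLC38A2 among them, do not hold the element. SLC7A5, SLC43A1 and SLC6A9 were the only transporters with a limma adjusted p below 0.05 in siZNF326. Of the genes with a match, SLC3A2, SLC7A1 and SLC1A4 had no overlap with siCTR in either siRNA group. SLC38A1 overlapped siCTR in both groups and SLC1A5 in siDBC1. A link between a match and a change was not tested. A match is a string of letters in a window, and binding was not measured.

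The same 16 windows, with none of SLC7A11, were also read for the antioxidant response element, the site of the factor NRF2, written as TGACNNNGC. It stood in 4 of the 16 windows, of SLC7A5, SLC3A2, SLC7A1 and SLC1A5, against 13.3% of all windows. Of all genes 16.1% held it in at least 1 window. No match overlapped one of the first element. The matches of SLC7A1 and SLC1A5 are not printed. Those of SLC7A5 and its partner SLC3A2 read as follows, again with the element in capitals.
SLC7A5 (chr16:87869481-87869529, minus strand): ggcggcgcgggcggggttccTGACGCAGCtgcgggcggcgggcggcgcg
SLC3A2 (chr11:62881642-62881690, plus strand): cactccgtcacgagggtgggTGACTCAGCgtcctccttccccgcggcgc
Both genes are read from the strand shown.

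Values are log2 expression values, 1 per probe set and array, and their number limits the precision. Array medians ran from 5.58 to 5.90, and all 10 transporters lay above the array median in each siCTR array. CCAR2 fell by 1.16 (SE 0.079, limma adjusted p = 0.0116) in siDBC1. The change lay between −1.21 and −1.11 in 9 single-array omissions, and 4 of them ended the call (largest adjusted p = 0.122): siCTR replicate 2, siDBC1 replicate 1, siDBC1 replicate 2 and siZNF326 replicate 3. It also ended with siCTR and siDBC1 fitted alone (adjusted p = 0.253). The ZNF326 transcript read 5.25, 5.64 and 5.76 in siCTR and 6.12, 5.56 and 5.81 in the siZNF326 arrays (difference 0.28, adjusted p = 0.851). It did not show a knockdown there, so siZNF326 stands for the libraries labelled so. HEK293 expresses keratins, and KRT8 read 10.26 to 10.85 and KRT18 read 8.37 to 8.61. Of markers of other cells, those of blood ran from PTPRC, the leukocyte antigen CD45, at 1.71 to 1.78 up to CD68, a lysosomal protein of macrophages, at 6.23 to 6.38. Those of fibroblasts ran from DCN at 2.44 to 2.73 up to the collagen COL1A1 at 6.40 to 6.73, above the array medians. No measured marker of HEK293 (7), fibroblasts (7), blood cells (5) or kidney tubule and podocytes (5) passed in any comparison. Before adjustment, 3 of the 7 HEK293 markers were higher in siZNF326 with a limma p under 0.05, with no overlap with siCTR. Of all probe sets 6.13% were higher at that level, and 12.9% had all siZNF326 arrays above all siCTR arrays. The 3 markers were the neurofilament genes NEFM, INA and NEFL, with differences of 1.72, 0.95 and 0.44 (adjusted p = 0.158, 0.220 and 0.323). Their part in the results on the transporters was not tested.

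In the arrays labelled siZNF326, 3 of the 10 transporters fell: SLC7A5, SLC43A1 and SLC6A9. All 10 had a mean below siCTR, with a median difference of −0.93 where the median over all probe sets was 0.032. The range ran from −2.12 for SLC7A11 to −0.17 for SLC38A2. Over all 22011 probe sets 0.0591% were called lower and 0.15% in either direction, by an adjusted p below 0.05 in limma.

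In siDBC1 none of the 10 passed, although all 10 again had a mean below siCTR. The median difference was −0.69 against 0.014 over all probe sets, and the range ran from −1.78 for SLC7A11 to −0.32 for SLC1A5. The call rate was 0.0363% over all probe sets and 0.0273% for lower calls. Before adjustment, 8 of the 10 were lower in siDBC1 with a limma p under 0.05 (background 2.55%), all but SLC1A5 and SLC38A1. In siZNF326 8 were lower at that level too (background 2.52%), all but SLC38A1 and SLC38A2. Both comparisons share the siCTR arrays, so they are not independent of each other.

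**Figure D1:**
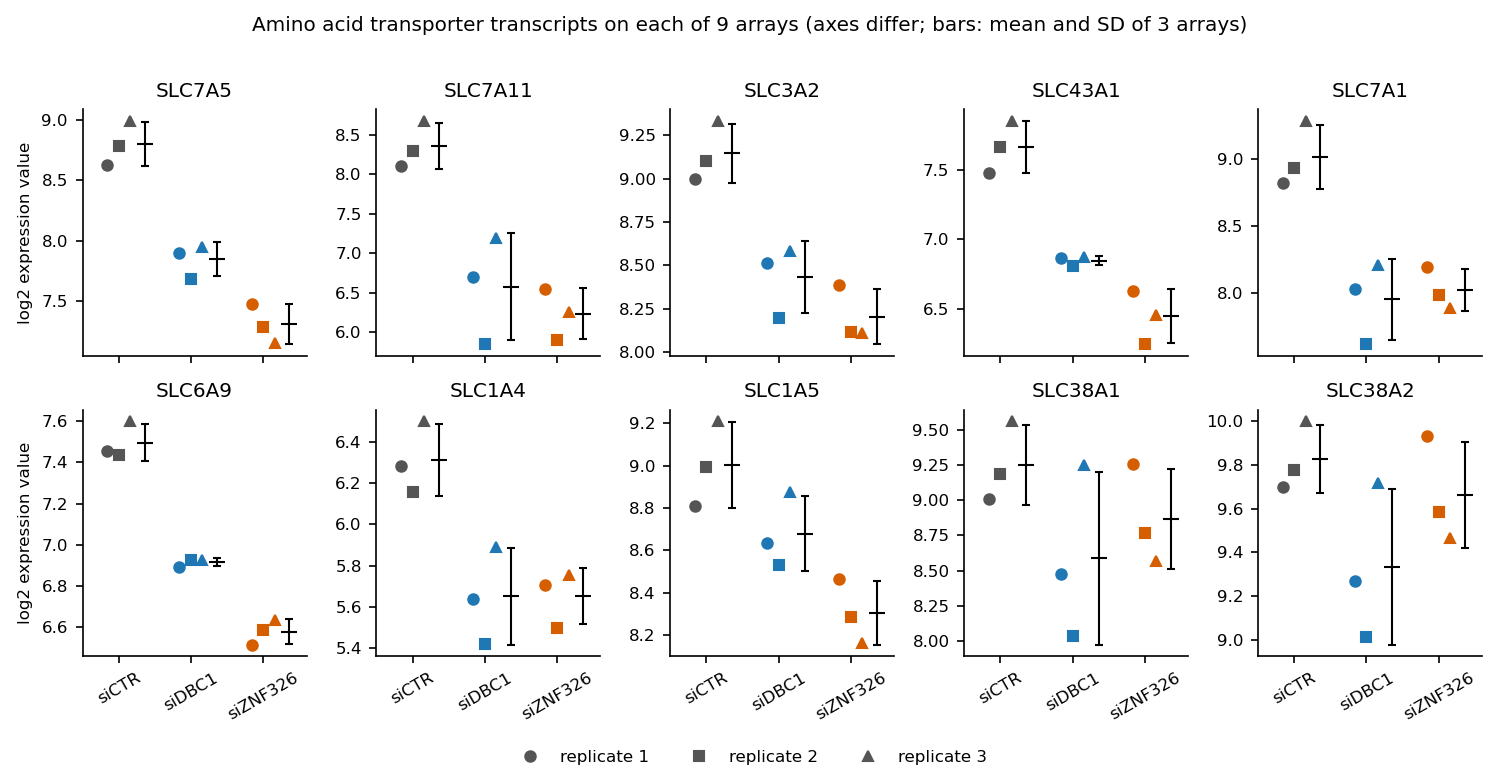
Each panel plots the log2 expression value (vertical axis, scaled per gene) of 1 transporter on the 9 arrays, by siRNA group, with symbols for the replicate number and bars for the mean and SD of 3 arrays. The siCTR arrays lie above all others for SLC7A5, SLC7A11, SLC3A2, SLC43A1, SLC7A1, SLC6A9 and SLC1A4, while the groups overlap for SLC38A1 and SLC38A2.

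SLC7A5, also called LAT1, imports leucine and other large neutral amino acids in exchange for glutamine. Its probe set (3703885, chromosome 16) read 8.63, 8.79 and 8.9967 in siCTR, 7.90, 7.68 and 7.95 in siDBC1, and 7.48, 7.28 and 7.15 in siZNF326. The 3 groups formed 3 steps with no overlap. In siZNF326 SLC7A5 fell by 1.502 (SE 0.13, limma adjusted p = 0.02003), or 2.83-fold. In siDBC1 it differed from siCTR by −0.96 (adjusted p = 0.111), and the 95% interval of that difference was −1.27 to −0.65.

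SLC43A1, also called LAT3, lets large neutral amino acids pass by facilitated diffusion, with no exchange and no SLC3A2. It stands on chromosome 11, as SLC3A2 does, and its probe set is 3373893. It read 7.48, 7.66 and 7.85 in siCTR, 6.86, 6.81 and 6.87 in siDBC1, and 6.63, 6.24 and 6.46 in siZNF326. The groups again made 3 separate steps, and the siDBC1 arrays had an SD of 0.035. SLC43A1 fell by 1.22 (SE 0.13, limma adjusted p = 0.0216), or 2.33-fold, in siZNF326. The difference was −0.82 in siDBC1 (adjusted p = 0.170).

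SLC6A9, also called GlyT1, takes up glycine with sodium and chloride. Its probe set (2409507, chromosome 1) read 7.45, 7.43 and 7.60 in siCTR, 6.89, 6.93 and 6.93 in siDBC1, and 6.51, 6.59 and 6.63 in siZNF326. Of the 10 it had the smallest SE, 0.075, and its groups made 3 steps as well. SLC6A9 fell by 0.92 (limma adjusted p = 0.0176), or 1.89-fold, in siZNF326, and the difference in siDBC1 was −0.58 (adjusted p = 0.0947).

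SLC3A2, the heavy chain that SLC7A5 and SLC7A11 need, read 8.9981, 9.10 and 9.34 in siCTR (probe set 3333711). It read 8.52, 8.20 and 8.58 in siDBC1 and 8.39, 8.11 and 8.11 in siZNF326. Every array of both siRNA groups lay below every siCTR array, and the 2 siRNA groups overlapped. The differences were −0.71 (SE 0.14, limma adjusted p = 0.311) and −0.94 (adjusted p = 0.0743).

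SLC7A11, also called xCT, brings in cystine in exchange for glutamate and so feeds glutathione synthesis. Its probe set (2786322, chromosome 4) read 8.11, 8.30 and 8.68 in siCTR, 6.70, 5.85 and 7.19 in siDBC1, and 6.55, 5.91 and 6.26 in siZNF326. It showed the widest distances from siCTR of the 10, and the siRNA arrays lay at least 0.92 below the lowest siCTR array. The differences were −1.78 (3.44-fold, limma adjusted p = 0.293) and −2.12 (4.36-fold, adjusted p = 0.0836). Its SE, 0.34, was also the largest of the 10, with an SD of 0.68 among the siDBC1 arrays against 0.29 in siCTR.

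SLC7A1, also called CAT1, carries arginine, lysine and ornithine. It read 8.82, 8.94 and 9.29 in siCTR, 8.03, 7.61 and 8.21 in siDBC1, and 8.20, 7.98 and 7.88 in siZNF326 (probe set 3507710, chromosome 13). The siRNA groups overlapped each other and not siCTR. The differences were −1.07 (SE 0.18, 2.10-fold, limma adjusted p = 0.225) and −0.9961 (adjusted p = 0.119).

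SLC1A4 and SLC1A5, also called ASCT1 and ASCT2, are sodium-dependent exchangers of small neutral amino acids, and SLC1A5 is a main entry of glutamine. SLC1A4 read 6.28, 6.16 and 6.50 in siCTR, 5.64, 5.42 and 5.89 in siDBC1, and 5.71, 5.50 and 5.76 in siZNF326. Both siRNA groups lay below siCTR, by −0.66 each (SE 0.15, limma adjusted p = 0.373 and 0.217). For SLC1A5 the probe set with the higher mean (3866276) read 8.81, 8.99 and 9.21 in siCTR, 8.63, 8.53 and 8.87 in siDBC1, and 8.47, 8.29 and 8.17 in siZNF326. The siDBC1 arrays overlapped siCTR and the siZNF326 arrays did not. The differences were −0.32 (SE 0.14, adjusted p = 0.811) and −0.70 (adjusted p = 0.158). The other SLC1A5 probe set (3836946) read 7.27, 6.79 and 7.53 in siCTR, with differences of −0.17 (adjusted p = 0.983) and −0.46 (adjusted p = 0.615). Its groups overlapped in every comparison, so the probe sets of SLC1A5 did not give the same separation.

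SLC38A1 and SLC38A2, also called SNAT1 and SNAT2, take up glutamine, alanine and serine with sodium, and lie on chromosome 12. SLC38A2 read 9.70, 9.78 and 10.00 in siCTR, 9.27, 9.01 and 9.71 in siDBC1, and 9.93, 9.58 and 9.47 in siZNF326. SLC38A1 read 9.01, 9.18 and 9.56 in siCTR, 8.48, 8.04 and 9.25 in siDBC1, and 9.26, 8.76 and 8.57 in siZNF326. In both genes siDBC1 replicate 3 and siZNF326 replicate 1 were high and fell within the siCTR range. For SLC38A2 the differences were −0.49 in siDBC1 (95% interval −0.95 to −0.031, limma adjusted p = 0.783) and −0.17 in siZNF326 (−0.63 to 0.30, adjusted p = 0.826). For SLC38A1 they were −0.66 (−1.41 to 0.085, adjusted p = 0.870) and −0.39 (−1.14 to 0.36, adjusted p = 0.755).

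The arrays that were high for SLC38A1 and SLC38A2 had the highest medians of their groups. The median of siDBC1 replicate 3 was 5.89 and that of siZNF326 replicate 1 was 5.90. Of the 10 transporters 9 and 8 were highest of their group on these arrays, where the share over all probe sets was 53.7% and 54.1%. Single arrays moved SLC38A1 and SLC38A2 in both directions. In siDBC1 the differences were −0.99 and −0.68 without siDBC1 replicate 3 (limma adjusted p = 0.376 and 0.353), and −0.39 and −0.33 without siDBC1 replicate 2 (adjusted p = 0.684 and 0.618). In siZNF326 they were −0.59 and −0.30 without siZNF326 replicate 1 (adjusted p = 1.0 for both), and −0.24 and −0.068 without siZNF326 replicate 3 (adjusted p = 0.855 and 0.941). Without siCTR replicate 3 the siZNF326 differences were −0.23 and −0.078. In siCTR, replicate 3 was highest for all 10, with 54.1% over all probe sets. Without it the median difference of the 10 was −0.59 in siDBC1 and −0.85 in siZNF326. What part the level of an array plays in these values was not tested.

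The distance from the siCTR mean varied among the arrays of a group. Its median over the 10 was −0.72, −0.92 and −0.57 on siDBC1 replicates 1 to 3, and −0.79, −0.97 and −0.95 on siZNF326 replicates 1 to 3. On the siCTR arrays it lay between −0.18 and 0.19. With each array's median shift from the siCTR arrays taken out, it was −0.74, −0.78 and −0.73 on siDBC1 replicates 1 to 3. On siZNF326 replicates 1 to 3 it was then −0.97, −1.02 and −0.99, and on the siCTR arrays between −0.137 and 0.135. The arrays of an siRNA group thus lay closer together after that step. Of 10 transporters, 7 had all siDBC1 arrays below all siCTR arrays (3.66% of all probe sets), and 8 had all siZNF326 arrays below them (5.27%). The exceptions were SLC38A1 and SLC38A2 in both groups and SLC1A5 in siDBC1.

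**Figure D2:**
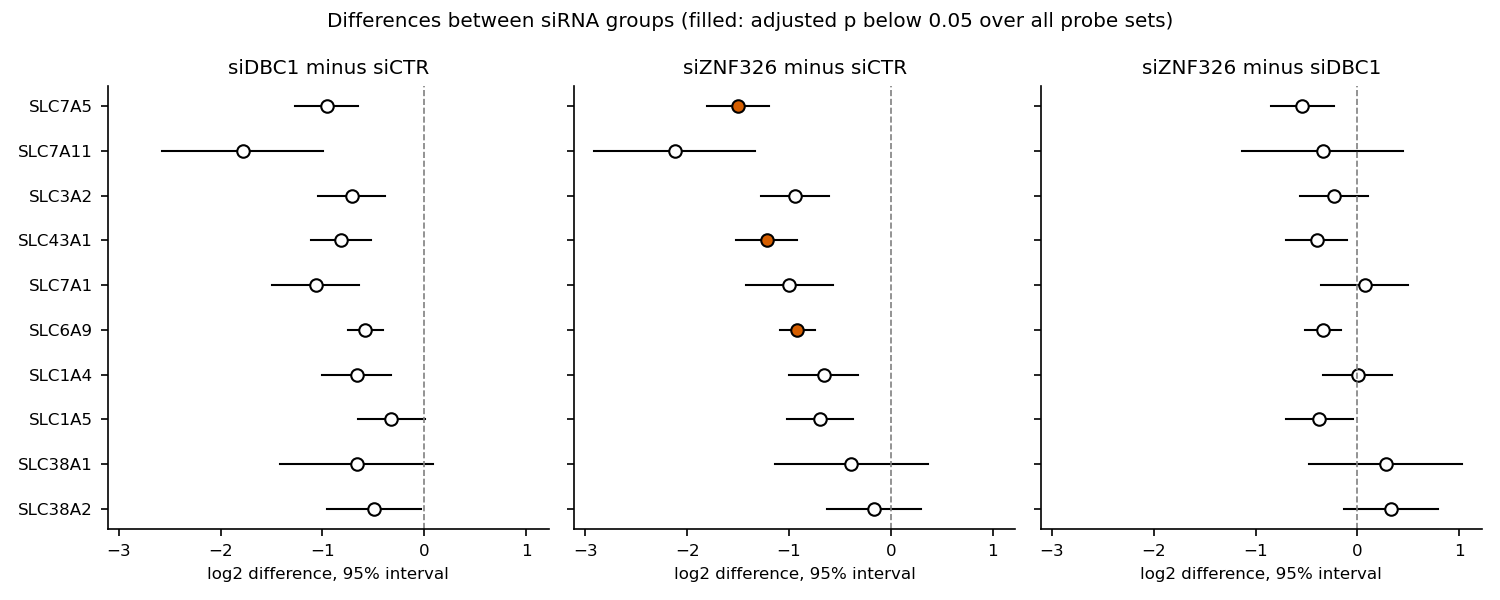
Points show the fitted log2 difference of each transporter in the 3 comparisons and lines its 95% interval, with filled points for an adjusted p below 0.05. SLC7A5, SLC43A1 and SLC6A9 are filled in siZNF326 minus siCTR, and no point is filled in the other comparisons.

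How many transporters passed depended on the scaling of the arrays and on single arrays, while every sign against siCTR held in all 15 alternatives. After quantile normalization 5 passed in siDBC1 (SLC7A11, SLC7A5, SLC3A2, SLC7A1 and SLC1A4) and 8 in siZNF326, all but SLC38A1 and SLC38A2. With each array centred on its median SLC43A1 took the place of SLC1A4 in siDBC1, and the same 8 passed in siZNF326. The split of all calls in siZNF326 moved with the scaling, from 13 lower of 33 to 107 of 196 after quantile normalization and 62 of 119 with centring. In siDBC1 it was 6 lower of 8, 52 of 69 and 36 of 46. The siZNF326 calls of SLC7A5, SLC43A1 and SLC6A9 held without siDBC1 replicate 2 or 3 and ended without any other single array. Their adjusted p reached 0.140, 0.153 and 0.128 there. None of the 10 passed when siCTR and siZNF326 were fitted alone. Without siDBC1 replicate 2, SLC7A11 and SLC3A2 passed too (limma adjusted p = 0.0293 and 0.0473).

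**Figure D3:**
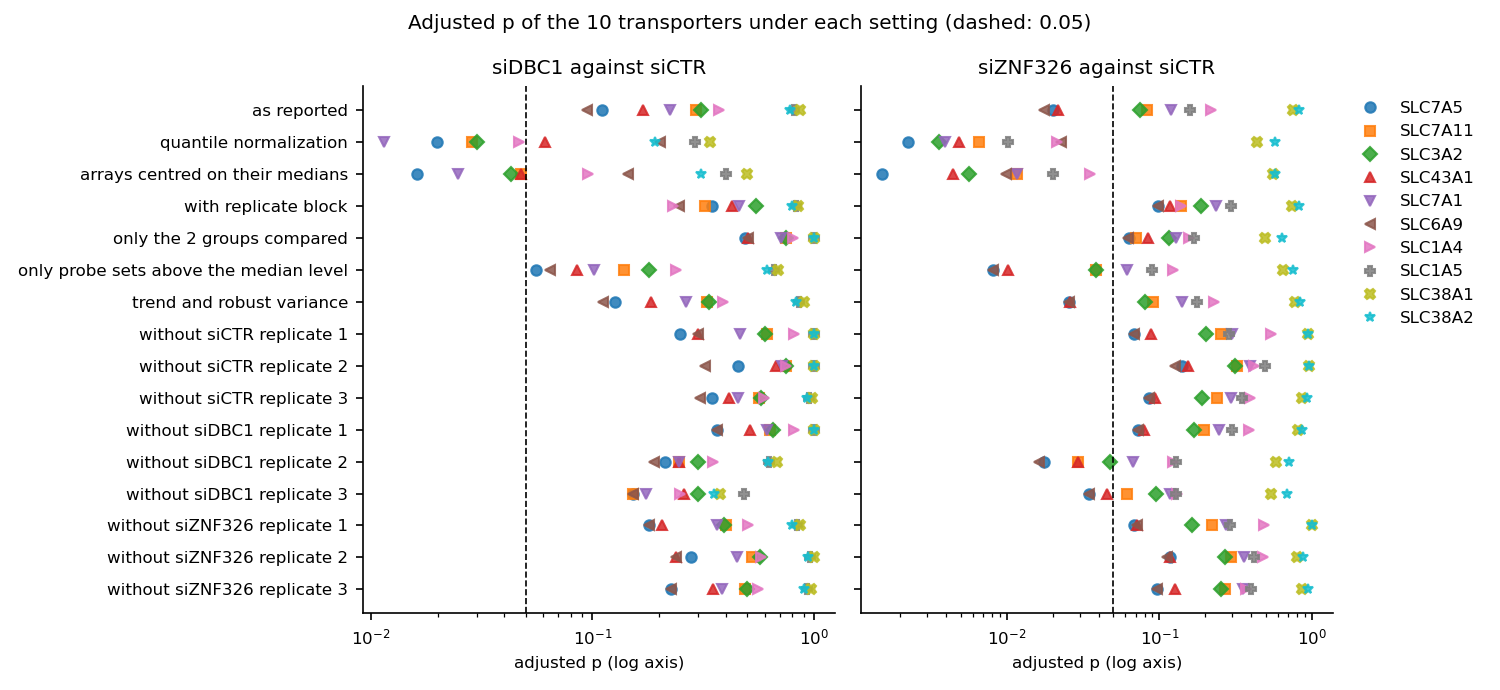
Points give the adjusted p (log axis) of each transporter, in the fit as reported and in 15 alternatives, for both comparisons with siCTR, and the dashed line marks 0.05. In siDBC1 points lie left of the line only after quantile normalization and with arrays centred, 5 each, whereas SLC38A1 and SLC38A2 stay to the right of it everywhere.

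Between the arrays labelled siZNF326 and siDBC1 none of the 10 transporters passed in limma (background 0.00909%, and 0.00454% for lower calls). Before adjustment, 4 of the 10 had p under 0.05, all lower in siZNF326 (background 2.43%). These were SLC7A5, SLC6A9, SLC43A1 and SLC1A5, and for the same 4 all siZNF326 arrays lay below all siDBC1 arrays (4.24% of all probe sets). No transporter had all siZNF326 arrays above all siDBC1 arrays (5.21%). The difference of SLC7A5 was −0.54 (95% interval −0.85 to −0.23, adjusted p = 0.490). Those of SLC43A1, SLC1A5 and SLC6A9 were −0.40, −0.37 and −0.34 (adjusted p between 0.414 and 0.658). SLC38A1 and SLC38A2 differed by 0.28 and 0.33 (adjusted p = 0.837 and 0.756). SLC7A1 and SLC1A4 differed by 0.071 (−0.36 to 0.50) and 0.0023 (−0.34 to 0.34), with signs that turned after quantile normalization and with centring. They also turned in 2 single-array omissions for SLC7A1 and 4 for SLC1A4. SLC7A11 differed by −0.34 with an interval from −1.13 to 0.45, which leaves a difference of either direction possible. Leaving out 1 array moved it between −0.71 (siDBC1 replicate 2) and −0.036 (siDBC1 replicate 3). The same omissions moved the difference of SLC38A1 to 0.00032 and 0.61, and that of SLC38A2 to 0.17 and 0.52.

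Other amino acid carriers, a list not matched to the 10 in level, did not share the pattern of signs. Their siCTR means went down to 1.85 for SLC7A13 and 2.14 for SLC38A4, levels at which a fall could hardly be seen. All 10 transporters lay above the array median in siCTR. What part the level plays in the signs was not tested. Of 29 measured carriers of the plasma membrane outside the 10, 12 were below siCTR in siDBC1 and 15 in siZNF326, with medians of 0.012 and −0.012, and none passed. Counted by a limma p under 0.05 before adjustment, 0 were lower and 3 higher in each comparison, where 3.63% of all probe sets were higher in siDBC1 and 6.13% in siZNF326. SLC6A6, the taurine transporter, read 6.82, 6.83 and 6.81 in siCTR, 7.33, 6.76 and 7.29 in siDBC1, and 7.94, 7.71 and 7.76 in siZNF326. All siZNF326 arrays lay above siCTR, as in 12.9% of all probe sets, by 0.99 on average and short of the threshold (adjusted p = 0.0789). SLC7A8, or LAT2, which like SLC7A5 pairs with SLC3A2, was higher by 0.23 and 0.40 (adjusted p = 0.807 and 0.275). SLC43A2, or LAT4, a relative of SLC43A1, was higher by 0.29 and 0.38 (adjusted p = 0.747 and 0.347). SLC36A1, which carries small amino acids with protons, was higher by 0.51 and 0.17 (adjusted p = 0.484 and 0.746). SLC38A3, a relative of SLC38A1 and SLC38A2, was higher by 0.20 in each (limma adjusted p = 0.876 and 0.615). For SLC7A8, SLC43A2, SLC36A1 and SLC38A3 all arrays of both siRNA groups lay above all siCTR arrays. Of the 29, 4 lay so in siDBC1 and 7 in siZNF326, against 5.18% and 12.9% of all probe sets. The share of all probe sets that lay so in both groups was not counted.

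Of 17 measured carriers of mitochondria, lysosomes and synaptic vesicles none passed, with medians of 0.074 and 0.045. Before adjustment, 2 were higher with a limma p under 0.05 in siDBC1, where 3.63% of all probe sets were. In siZNF326 0 passed that level, where 2.52% of all probe sets were lower and 6.13% higher. SLC25A22, the mitochondrial glutamate carrier, differed by 0.28 in siDBC1 and −0.20 in siZNF326 (adjusted p = 0.732 and 0.633). SLC25A29, a mitochondrial carrier of basic amino acids, differed by 0.35 and 0.37 (adjusted p = 0.882 and 0.609). SLC38A7, a lysosomal relative of SLC38A2, differed by 0.24 and 0.18 (adjusted p = 0.805 and 0.652).

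**Figure D4:**
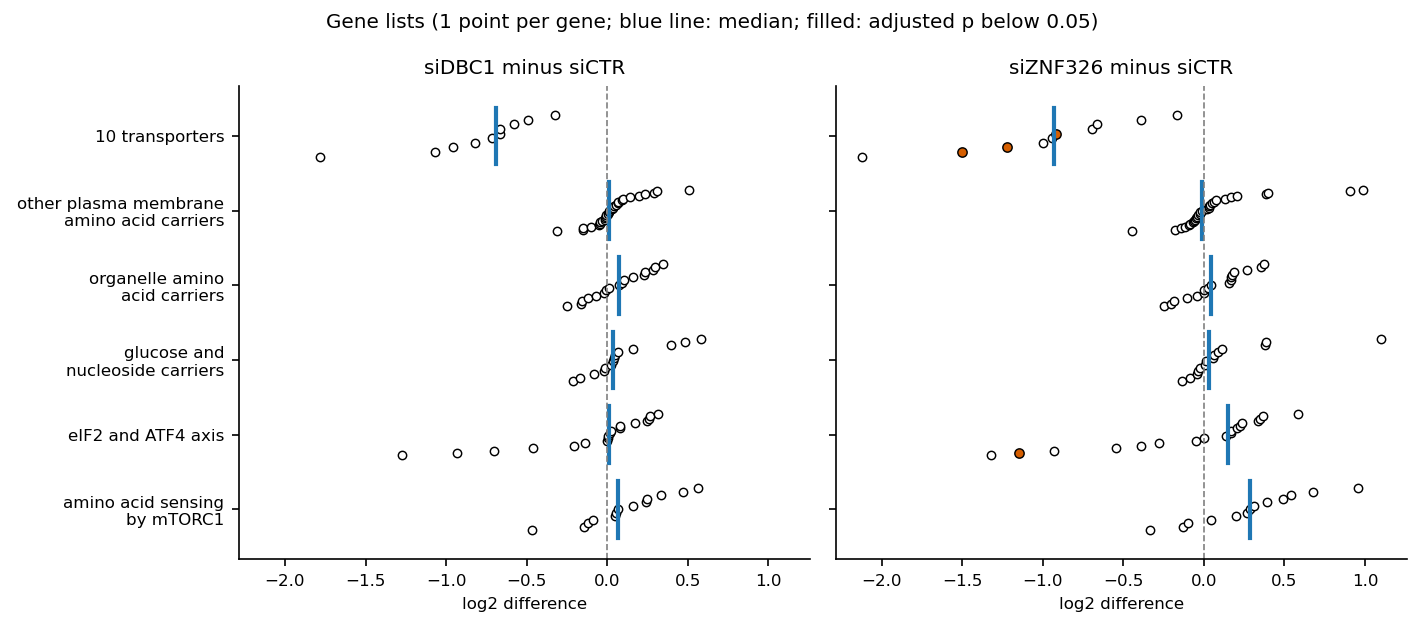
Each point is the log2 difference of 1 gene from siCTR, in siDBC1 (left) and siZNF326 (right), by gene list, with a blue line at the list median and filled points for an adjusted p below 0.05. The 10 transporters all lie left of 0, with medians of −0.69 and −0.93, while the other carrier lists centre between −0.012 and 0.074. These other lists were not matched to the 10 in expression level.

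In the eIF2 and ATF4 list 1 of 18 measured genes, DDIT3, passed in siZNF326 and 0 in siDBC1, with medians of 0.15 and 0.014. Of all probe sets 0.15% were called in siZNF326 and 0.0363% in siDBC1, in either direction. The 18 also include KEAP1, a gene of the NRF2 pathway. The eIF2 kinases and the eIF2B subunits had no member that passed. ATF4 itself read 5.98, 5.98 and 5.99 in siCTR and between 5.76 and 6.21 elsewhere, with differences of 0.0070 in siDBC1 and −5.33e-05 in siZNF326 (limma adjusted p = 0.999 and 1.0). The transcript says nothing on ATF4 protein, which is set mainly by translation. DDIT3, which encodes the factor CHOP, read 6.56, 6.70 and 6.97 in siCTR, 5.34, 5.38 and 5.70 in siDBC1, and 5.69, 5.43 and 5.66 in siZNF326. It fell by 1.15 in siZNF326 (adjusted p = 0.0390), a call that held without siDBC1 replicate 2 or 3 and ended without any of the 7 other arrays (largest adjusted p = 0.192). It also ended with siCTR and siZNF326 fitted alone (adjusted p = 0.0838). In siDBC1 the difference of −1.27 did not pass (adjusted p = 0.0607). CEBPG, a C/EBP partner of ATF4, differed by −0.93 and −1.32 (adjusted p = 0.313 and 0.0679). TRIB3, a pseudokinase that restrains ATF4, differed by −0.70 and −0.93 (adjusted p = 0.313 and 0.0789). Before adjustment, 4 genes of the list were lower in siDBC1 with a limma p under 0.05: DDIT3, CEBPG, TRIB3 and PPP1R15A. CEBPB joined them in siZNF326, to make 5, and none was higher in either. The shares of all probe sets lower at that level were 2.55% and 2.52%.

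Likeness to the 3 transporters that fell was measured over the arrays. It was the root mean square difference over 9 arrays, after each gene was set to its own siCTR mean, among 14222 genes outside the 10. For SLC7A5 the closest were PCK2, the mitochondrial phosphoenolpyruvate carboxykinase, at 0.15, CEBPG at 0.15 and ASNS, asparagine synthetase, at 0.18. For SLC43A1 they were FUT1, a fucosyltransferase, at 0.15, CBS, cystathionine beta-synthase, at 0.16 and ASNS at 0.17. For SLC6A9 they were PHGDH, the first enzyme of serine synthesis, at 0.13, TRIB3 at 0.14 and CDC42EP1, a CDC42 effector, at 0.16. Among the 10, SLC43A1 was the nearest to SLC7A5 at 0.21 and SLC38A2 the farthest at 0.83. The nearest of the 10 to SLC6A9 and to SLC43A1 was SLC3A2, at 0.17 and 0.20. The measure follows the size of a change, so SLC7A11 lay 0.66 from SLC7A5 and 1.05 from SLC6A9.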

How the data were processed

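HEK293 RNA was labelled for Affymetrix whole-transcript arrays after ribosomal RNA depletion, per the labels' protocols. The deposited log2 values were made by the authors with RMA, per the submitters' processing notes, which name build hg18. The log base rests on RMA and the range of values, 0.333 to 13.4. Scanner files and detection values were not used here.

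The annotation gave a single gene symbol to 14432 of the 22011 probe sets, more than 1 to 2408, and left 5171 without. Gene identifiers matched 14404 to a GRCh38.p14 table, which changed 0 symbols. A gene with several probe sets was read from the one with the highest mean. Probe sets were named through a platform annotation. Coordinates are given only for RefSeq promoter windows.

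All 9 arrays entered 1 limma 3.58.1 fit (lmFit, eBayes; R 4.3.3) with a mean per group, unfiltered. Tests were two-sided, the Benjamini-Hochberg method ran over all probe sets, and genes with an adjusted p below 0.05 count as called. The fit was tested on simulated data. The 15 alternatives were quantile normalization, arrays centred on their medians, a replicate block, a fit of each pair of groups alone, probe sets above the median level, trend with robust variance, and 9 single-array omissions. A group lay below another when its highest array was below the other's lowest.

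The 10 transporters and the lists (other plasma membrane carriers, organelle carriers, glucose and nucleoside carriers, the ATF4 axis, amino acid sensing by mTORC1, cell markers) were chosen with earlier results of these data known. Named genes were the 10, called list members, the 3 smallest p values per list and comparison with siCTR (not for glucose carriers and markers), ATF4, DDIT3, TRIB3, CCAR2, ZNF326, and the 3 genes closest to each called transporter. KRT8, KRT18, NEFM, INA, NEFL, PTPRC, CD68, DCN, COL1A1, PPP1R15A, CEBPB, SLC7A13, SLC38A4 and SLC38A3 were named after their values were seen.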

Additional observations from a re-analysis of the deposited data

How the results depend on the processing

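Every difference of a transporter from siCTR kept its sign in 15 of 15 alternatives. In siDBC1 the number of transporters called was 0 as reported, 5 after quantile normalization and 5 with arrays centred on their medians. In siZNF326 it was 3 as reported, 8 and 8 under these scalings, and 5 among probe sets above the median level. It was 0 when siDBC1 was kept out of the fit, and between 0 and 5 when 1 array was left out. The median difference in siZNF326 was −1.04 after quantile normalization, against −0.93. Between siZNF326 and siDBC1 it was −0.28 as reported, −0.39 after quantile normalization, and between −0.34 and −0.094 when 1 array was left out.

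With the replicate block no transporter passed in siZNF326 (0 of 10, with 8 at an unadjusted p under 0.05 in limma). Over all probe sets calls went from 33 to 1 in siZNF326 and from 8 to 0 in siDBC1. The block also ended the calls of CCAR2 in siDBC1 (adjusted p = 0.103) and DDIT3 in siZNF326 (adjusted p = 0.0979). The residual correlation of same-numbered arrays was 0.024, 0.19 and 0.25 between siCTR and siDBC1, for replicates 1, 2 and 3. It was −0.12, 0.096 and −0.18 between siCTR and siZNF326, and −0.11, 0.40 and −0.30 between siDBC1 and siZNF326. Arrays of unlike number in different groups ran from −0.57 to 0.61. With 3 arrays a group, these values cannot decide whether arrays were paired by number. The cause of these shifts was not tested. With 3 arrays a group and no detection values, the smaller differences could not be resolved.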

Other observations

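Genes through which mTORC1 senses amino acids had medians of 0.065 in siDBC1 and 0.29 in siZNF326 over 13 measured members, with 0 calls in limma. Before adjustment, 1 was lower and 1 higher with p under 0.05 in siDBC1, and 1 lower and 2 higher in siZNF326. Of all probe sets 2.55% were lower and 3.63% higher at that level in siDBC1, and 2.52% and 6.13% in siZNF326. SESN2, a leucine sensor and ATF4 target, differed by −0.47 and −0.33 (adjusted p = 0.568 and 0.537), with all arrays of both groups below siCTR. Of all probe sets 3.66% lay so in siDBC1 and 5.27% in siZNF326, and the share in both was not counted. SESN1, a relative of SESN2 and a p53 target, differed by 0.24 and 0.96 (adjusted p = 0.968 and 0.249). SESN3 differed by 0.56 and 0.49 (adjusted p = 0.850 and 0.650). The Rag GTPases RRAGA and RRAGB, which bring mTORC1 to lysosomes, differed by 0.47 and 0.31 and by 0.065 and 0.68, and neither passed (adjusted p from 0.529 to 0.999).

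Glucose and nucleoside carriers, another set of SLC genes, had medians of 0.039 and 0.035 over 14 measured members, with 5 of 14 below siCTR in each comparison. None passed in limma, and 2 were higher and 0 lower at an unadjusted p under 0.05 in each, against the same shares of all probe sets.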
